A study of Mus musculus with 12 samples.

Results

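The nuclear-encoded subunits of oxidative phosphorylation were followed across fresh and briefly cultured dendritic cells of the mouse spleen. The members were all genes with a single symbol on a probe set whose symbol begins as those of complex I subunits (Nduf followed by a, b, c, s or v), complex III (Uqcr), complex IV (Cox4 to Cox8) or complex V (Atp5), together with Sdha to Sdhd of complex II, Cyc1 and Cycs. This gave 73 genes of 8251 with a single symbol on the array, measured by 101 probe sets. A gene with several probe sets was represented by the one of highest mean over the 12 arrays. There were 29 members in complex I, 4 in complex II, 8 in complex III, 15 in complex IV and 14 in complex V, besides Cycs and the complex I assembly factors Ndufaf1 and Ndufaf4, which the pattern also takes in. Another 12 symbols of the pattern, among them Cox7c, Ndufb4 and Ndufs6, were found only on probe sets shared by several symbols and were left out. Subunits encoded by the mitochondrial genome carry other names and are not members.

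Oxidative phosphorylation takes place in the inner mitochondrial membrane. Complex I oxidises NADH and complex II oxidises succinate, and both pass electrons to ubiquinone; complex III hands them to cytochrome c, and complex IV gives them to oxygen. Complexes I, III and IV pump protons, and complex V, the ATP synthase, uses the gradient to make ATP. Resting dendritic cells are known to rely on this pathway, whereas dendritic cells activated through pattern recognition receptors are known for a shift to glycolysis. Dendritic cells taken out of the spleen into culture are also known to mature without added stimulus.

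Cells of high CD11c were sorted from mouse spleen and divided into CD4+ cells, CD8+ cells and cells with neither marker (double-negative, DN). RNA of each subset came from cells just isolated (fresh) or from cells kept for 2 h at 37 °C in tissue culture medium (cultured), which made 6 groups of 2 arrays. Strain, age and sex of the mice, the number of animals pooled and any stimulus were not given in the labels used here, and nothing there says that the replicates came from separate animals, so p-values cover only the spread of these samples, and that may be technical. One label of replicate 1 of fresh CD8+ cells calls the cells CD4 positive and the others call them CD8+, as which the array was used. The deposited values are average difference intensities on a linear scale. They can be below 0, and a value above a floor of 91.4 was taken as detected.

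Cd8a read 679 to 1675 on the 4 CD8+ arrays and -17.9 to 36.1 on the other 8. Cd4 read 617 and 613 in fresh CD4+ cells, 271 and 112 in the cultured ones, and -27.6 to 106 where the subset was another, so replicate 2 of cultured CD4+ cells was set apart from those by little. Cultured CD4+ replicate 1 was the noisiest array: its values below 0 had a root mean square of 108, and the others one of 26.2 to 82.5. The ratio of 3' to 5' signal of Gapdh, which rises as RNA degrades, reached 2.55 in fresh CD8+ replicate 1, 1.97 in cultured CD4+ replicate 1 and 1.34 in cultured DN replicate 1. Elsewhere that ratio lay between 0.890 and 1.04. The same ratio of actin ranked the arrays differently. On those 3 arrays it was 0.908, 1.16 and 0.919 in the same order, and it was highest in cultured CD4+ replicate 2 (1.28). Leading counts are also given without the 3 arrays of highest Gapdh ratio, a choice that the actin ratio would not have made.

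Promoters of 59 of the 73 members were listed in the RefSeq table (GRCm38.p6, 250 bases before to 50 bases after the start site). Both strands were searched for 3 words that belong to binding sites of factors known to act on respiratory genes: GCATGCGC (NRF1), CCGGAAG (ETS family, to which GABP belongs) and AAGATGG (YY1); the last AAG of CCGGAAG can also be the first AAG of AAGATGG. GCATGCGC was found in 11 of the 59 promoters (18.6%), against 3.0% of 27025 genes and 6.4% of the 3837 genes with a tested probe set. CCGGAAG was found in 16 (27.1%), against 9.9% and 21.9%. AAGATGG was found in 8 (13.6%), against 7.3% and 9.4%. Among the 15 members that were lower after culture and had a promoter in the table, 3 held GCATGCGC, 2 held CCGGAAG and 2 held AAGATGG. A match is a description of the letters and not a site. The following 5 are shown because all belong to members that were lower after culture and between them they hold each of the words, in capitals. They run 5′ to 3′ on the gene's strand.
Ndufa6 (chr15:82354242-82354541, minus strand): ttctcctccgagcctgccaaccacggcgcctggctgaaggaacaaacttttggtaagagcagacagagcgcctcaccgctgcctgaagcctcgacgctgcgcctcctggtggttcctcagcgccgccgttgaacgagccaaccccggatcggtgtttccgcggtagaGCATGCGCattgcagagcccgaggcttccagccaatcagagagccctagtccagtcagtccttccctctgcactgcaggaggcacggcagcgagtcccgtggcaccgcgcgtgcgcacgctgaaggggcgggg
Ndufa8 (chr2:36049289-36049588, minus strand): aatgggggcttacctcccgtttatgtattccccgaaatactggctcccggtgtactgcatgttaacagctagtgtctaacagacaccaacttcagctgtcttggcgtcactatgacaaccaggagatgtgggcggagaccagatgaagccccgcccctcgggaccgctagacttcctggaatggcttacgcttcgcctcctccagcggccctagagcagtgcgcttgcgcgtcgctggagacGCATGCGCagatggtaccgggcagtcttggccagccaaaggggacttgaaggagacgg
Uqcr11 (chr10:80406772-80407071, minus strand): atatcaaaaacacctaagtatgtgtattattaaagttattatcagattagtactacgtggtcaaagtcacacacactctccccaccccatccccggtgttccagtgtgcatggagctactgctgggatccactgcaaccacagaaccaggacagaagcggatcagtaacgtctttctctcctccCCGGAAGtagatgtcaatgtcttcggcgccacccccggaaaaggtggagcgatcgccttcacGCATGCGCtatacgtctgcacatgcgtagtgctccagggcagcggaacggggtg
Ndufa3 (chr7:3617123-3617422, plus strand): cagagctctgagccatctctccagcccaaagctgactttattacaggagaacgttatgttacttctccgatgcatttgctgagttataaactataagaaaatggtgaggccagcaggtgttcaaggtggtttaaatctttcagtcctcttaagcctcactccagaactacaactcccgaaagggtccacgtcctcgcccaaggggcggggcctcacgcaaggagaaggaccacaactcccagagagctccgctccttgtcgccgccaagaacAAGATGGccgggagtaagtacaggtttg
Ndufs3 (chr2:90904672-90904971, minus strand): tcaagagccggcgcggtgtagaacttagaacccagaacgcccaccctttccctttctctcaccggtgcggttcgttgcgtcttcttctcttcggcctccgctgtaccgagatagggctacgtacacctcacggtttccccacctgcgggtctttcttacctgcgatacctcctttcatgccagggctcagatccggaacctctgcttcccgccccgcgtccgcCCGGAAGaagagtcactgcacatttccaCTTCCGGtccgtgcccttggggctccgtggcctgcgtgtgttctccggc
Counted from the start site, GCATGCGC begins at -83 in Ndufa6, at -8 in Ndufa8 and at -4 in Uqcr11, whose promoter also holds CCGGAAG at -66. AAGATGG begins at 23 in Ndufa3. In Ndufs3, CCGGAAG begins at -27 and its complement at 2.

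Of the 73 members, 47 were above the floor on all 12 arrays and 9 on none. A probe set was tested if it was above the floor on at least 2 arrays, which 63 members and 6159 of 12422 probe sets of the array were. Those tested were 26 of complex I, all 4 of complex II, all 8 of complex III, Cycs, 13 of complex IV and 11 of complex V. Not tested were Ndufa12, Ndufc2, Ndufs4, Ndufaf1, Ndufaf4, Cox6a2, Cox8a, Atp5j2 and Atp5k, which were above the floor on 0 arrays, and Atp5g1, which was on 1 (cultured CD4+ replicate 1, at 132). Just inside were Cox5a, Cox6b1, Cox7a1 and Cox8b on 2 arrays, Ndufa1 on 3 and Sdha on 4. Members that passed only through the arrays where they were high had to differ between arrays, so counts over the 63 describe the tested members only. Ndufa1, called higher after culture below, passed only through cultured arrays, and Sdha, called lower, only through fresh ones. Cox5a, Cox6b1, Cox7a1 and Cox8b, none of them called, also passed only through cultured arrays. All of these remain in the counts. By the maker's naming, 12 of the members, all tested, are measured by probe sets that can bind several genes of a family (suffix f), among them Ndufa3, Ndufb5, Uqcrb, Cox4i1, Cox6a1, Cox6c and Atp5md.

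**Figure D1:**
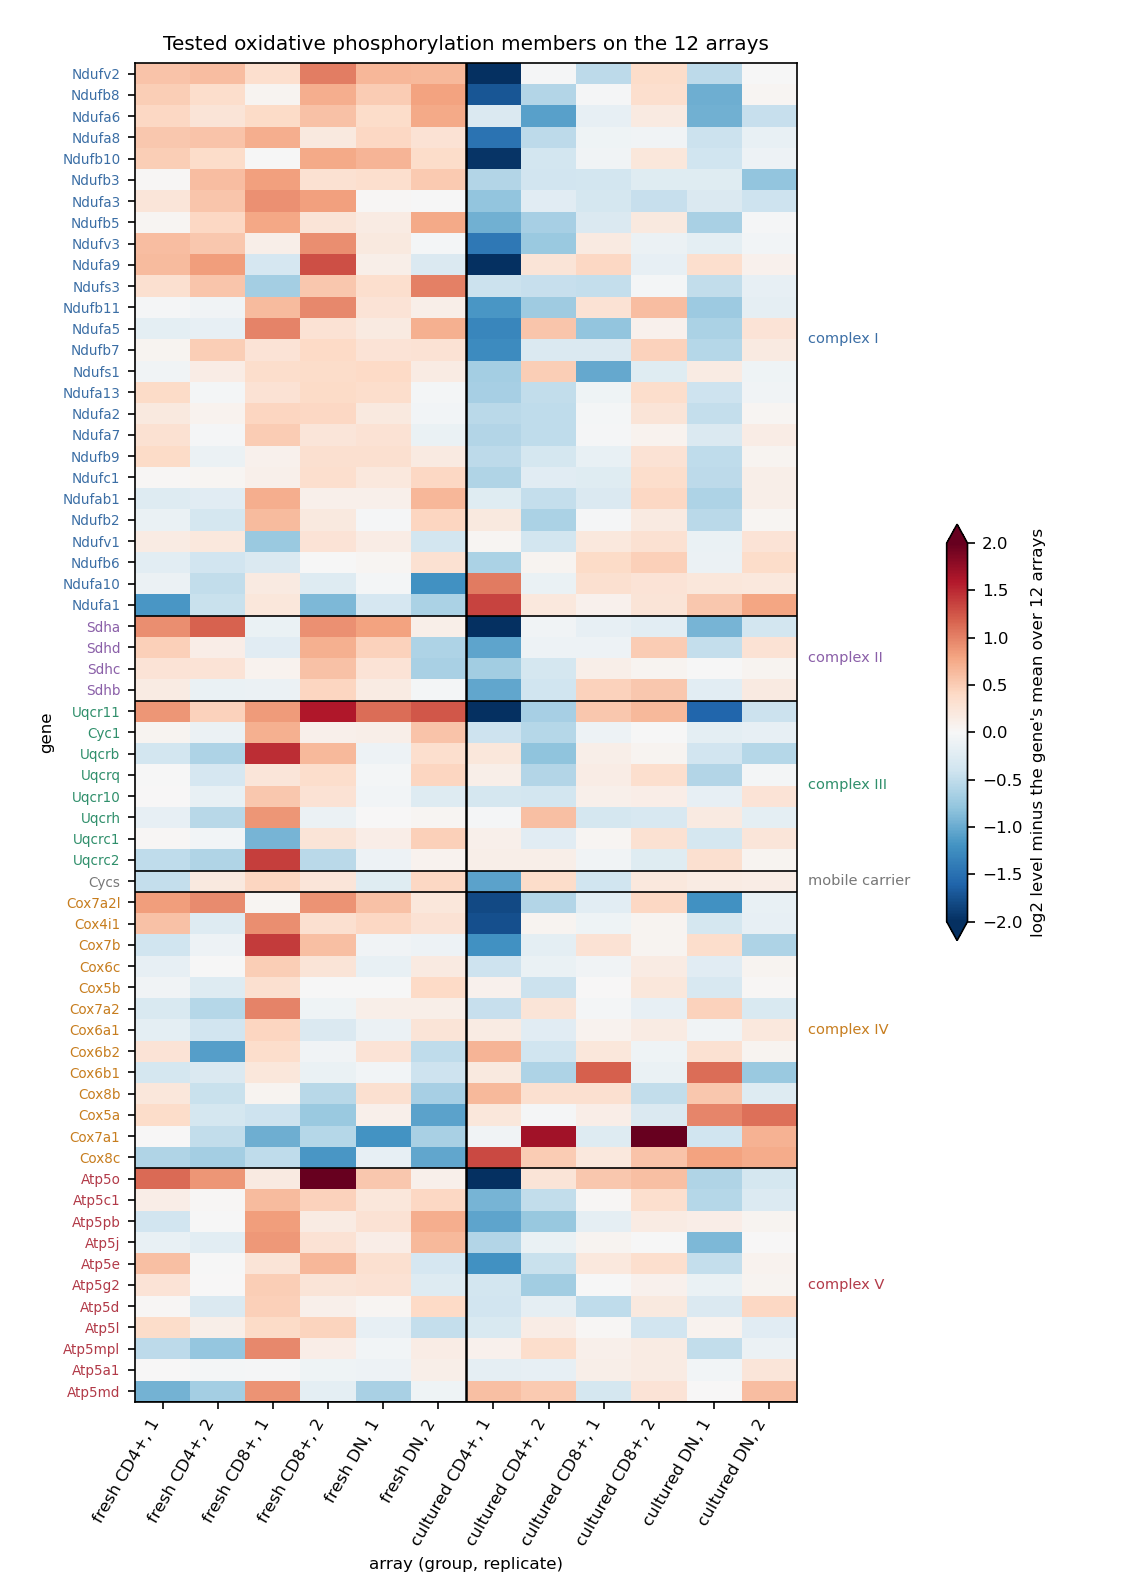
Each row is a tested member, ordered by complex and by culture effect, and each column is an array; the colour is the log2 level minus the gene's mean over the 12 arrays, with colours ending at 2 in either direction. Most rows of complex I are red on the fresh side and blue in cultured CD4+ replicate 1. The lowest rows of complex IV run the other way, which the order by culture effect places there. Among them Cox5a, Cox6b1, Cox7a1 and Cox8b passed the filter only through cultured arrays.

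After culture, 11 of 26 tested complex I subunits were lower, among them Ndufa3 and Ndufb3, as were Uqcr11 of complex III, Cox7a2l of complex IV and Atp5c1 of complex V. Only Cox8c and Ndufa1 of the 63 tested members were higher by the test, and Ndufa1 passed the filter only through cultured arrays. Differences are on a log2 scale, in which low values were damped so that intensities below 0 could be used, and are given ± their standard error. Averaged over the 3 subsets, 18 of the 63 were called at an adjusted p under 0.05 (limma, adjusted by Benjamini-Hochberg over 6159 probe sets): 16 were lower and 2 were higher. The 16 lower are 25.4% of the members, next to 22.3% of all tested probe sets, so the share lower was near the background. The 2 higher are 3.2%, next to 17.0%, and 39.3% of all probe sets were called in either direction. The median log2 difference was -0.37 over the members and -0.02 over all probe sets, and 47 of the 63 differences were below 0, against 50.7% of all. Without the 3 arrays of highest Gapdh ratio 20 members were called, 4 higher and 16 lower, with a median of -0.25. The labels number the arrays of every group as experiments 1 and 2, and the fit does not use that number. With it as a block 2953 of the 6159 probe sets were called, against 2420 in the main fit. The number of probe sets called also moved with single arrays left out. Among the members the block called 24, 4 higher and 20 lower. Leaving out replicate 2 of cultured CD4+ cells raised the count to 30, and leaving out any other array gave 12 to 19.

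Of the 18 calls 12 were in complex I. There 11 of 26 were lower (42.3%, next to the 22.3% of all probe sets) and 1 higher, with a median difference of -0.60. Complex II had 1 lower of 4 (median -0.29), complex III 2 lower of 8 (median -0.17), complex IV 1 lower and 1 higher of 13 (median 0.10) and complex V 1 lower of 11 (median -0.35). Cycs, the cytochrome c that carries electrons between complexes III and IV, was not called. The 13 of complex IV include Cox5a, Cox6b1, Cox7a1 and Cox8b, with differences of 0.7, 0.34, 1.29 and 0.35. These passed the filter only through cultured arrays, so selection favoured a higher median in complex IV. The difference between complexes was not tested.

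**Figure D2:**
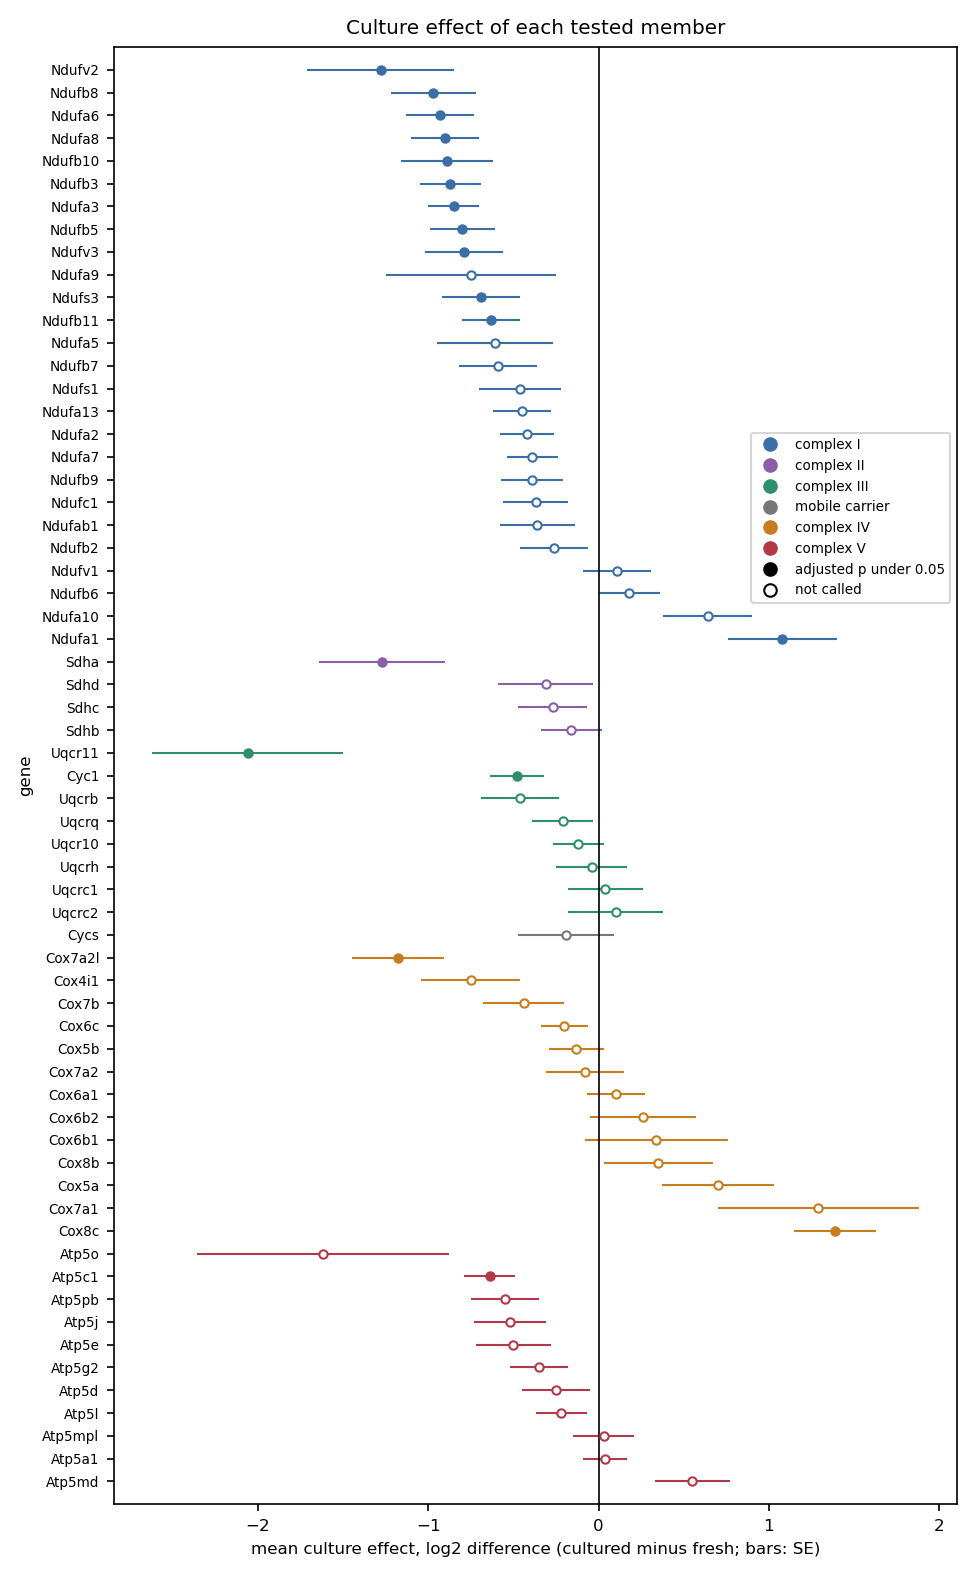
Each point is a tested member's culture effect averaged over the 3 subsets, as a log2 difference of cultured minus fresh, with bars of 1 standard error, coloured by complex and filled where the adjusted p was under 0.05. Of the 26 complex I subunits 22 lie below 0, and Cox8c and Ndufa1 are the filled points above 0.

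Other measures moved with culture on the same arrays. All 8 macrophage markers were measured. Their summed intensity was 1596 to 3931 on the fresh arrays and 784 to 1827 on the cultured ones, highest in fresh CD4+ cells (3707 and 3931). Adgre1, Csf1r, C1qa and C1qc were lower after culture, Cd68, C1qb and Vcam1 were not called, and Marco was below the floor on all arrays. Of 6 B cell markers 5 were measured, with sums of 642 to 1303 fresh and 353 to 1049 cultured. Cd22 and Cd79b were lower after culture, Pax5 was higher, and Cd79a and Ms4a1 were not called. Cd22 read 466 to 863 in fresh CD4+ and DN cells, -2.8 and 14.8 in fresh CD8+ cells and below 0 on every cultured array. Of the NK cell markers Klrk1 alone was tested and was higher (0.94 ± 0.30, adjusted p = 0.0309). T cell markers summed to at most 119 on any array, neutrophil markers to at most 276 and platelet markers to at most 273. Red cell markers, 3 of 5 measured, summed to 2540 on a cultured CD4+ array and to 199 to 980 elsewhere. Among 7 dendritic cell markers Itgax and Flt3 were lower after culture and H2-Ab1, H2-Aa and Cd74 were higher. The members made up 1.51% to 1.86% of the summed positive intensity of a fresh array and 0.930% to 1.44% of a cultured one, while the 99th percentile of intensity was 2874 to 3436 fresh and 3788 to 4408 cultured, and global scaling ties such measures together. The part of these in the members' differences was not tested. In bulk samples fewer cells of a type and less RNA per cell cannot be told apart.

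Within complex I, Ndufa3, Ndufa6, Ndufa8 and Ndufb3 were the members for which all 6 fresh arrays read above all 6 cultured ones. These are 4 of 63 (6.3%), next to 10.1% of all tested probe sets. All 4 are accessory subunits, which surround the catalytic core of the complex, but so are most of the tested complex I members. Ndufa6 is one of its LYR-motif proteins and Ndufa8 one with twin cysteine motifs that faces the intermembrane space. Ndufa3 (probe set 96915_f_at) read 827 and 1023 in CD4+ cells, 1322 and 1234 in CD8+ cells and 711 and 692 in DN cells when fresh. After culture its intensities were 402 and 599.8, 547 and 508, and 570.1 and 524 in the same order (log2 difference of culture -0.85 ± 0.15, adjusted p = 0.00168). The fresh pairs did not overlap between subsets and the cultured ones did. For Ndufa3, however, no difference between fresh subsets was called, nor any between subsets in culture effect. Its second tested probe set, above the floor on 2 arrays, gave -0.32 (adjusted p = 0.403). Ndufa6 (160237_at) read 410.2 and 366 in CD4+ cells, 401 and 463 in CD8+ cells and 394 and 522 in DN cells fresh, and 250.3 and 142, 273 and 346, and 155 and 221 cultured (log2 difference -0.93 ± 0.20, adjusted p = 0.00422). The cultured CD8+ arrays came nearest to the fresh level. For Ndufa8 (93531_at) the fresh intensities were 457 and 470.2 in CD4+ cells, 521 and 362 in CD8+ cells and 421 and 384 in DN cells, and the cultured ones 109.9 and 219, 298 and 299, and 234 and 285 (log2 difference -0.90 ± 0.20, adjusted p = 0.00492). It was lowest on replicate 1 of cultured CD4+ cells. Ndufb3 (93562_at) gave 469.6 and 709 in CD4+ cells, 814 and 569 in CD8+ cells and 584 and 667 in DN cells fresh and 307 and 354, 357 and 391, and 389 and 268 cultured (log2 difference -0.87 ± 0.18, adjusted p = 0.00368). The 6 cultured arrays spanned 268 to 391, less than the gap between the replicates of fresh CD4+ cells.

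**Figure D3:**
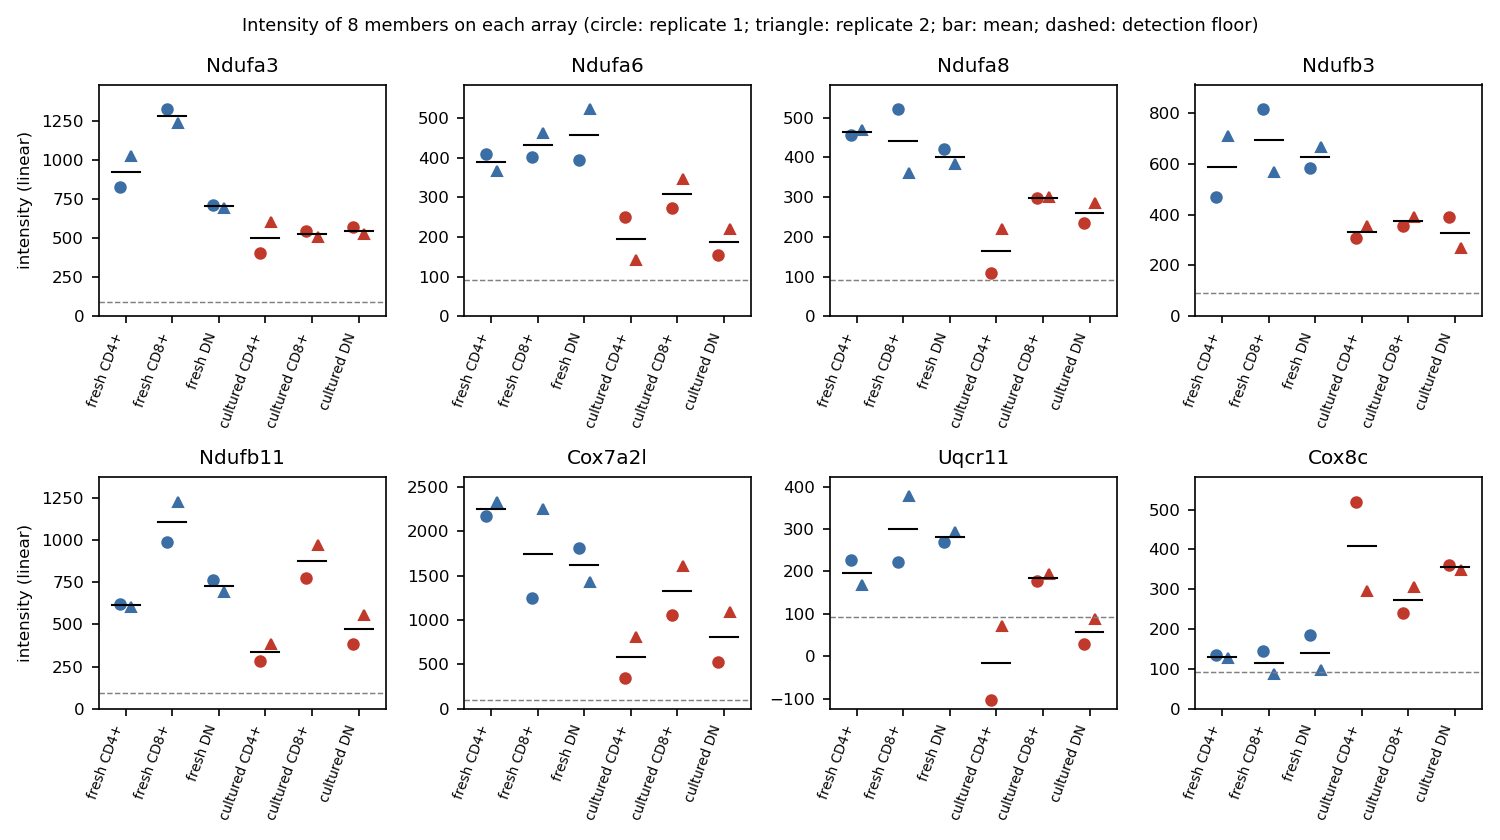
The intensity of 8 members is plotted on a linear axis for each of the 6 groups, fresh in blue and cultured in red, with circles for replicate 1, triangles for replicate 2, a bar for the mean of the pair and a dashed line at the floor of 91.4. In Ndufa3, Ndufa6, Ndufa8 and Ndufb3 every red point lies below every blue one, and in Cox8c every red point lies above.

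Ndufb5, Ndufb8 and Ndufb11, accessory subunits of the membrane arm, were also lower, with some overlap between fresh and cultured arrays. Ndufb5 (97307_f_at) read 1354 and 1758 in CD4+ cells, 2249 and 1586 in CD8+ cells and 1478 and 2242 in DN cells fresh, and 679.9 and 838, 1079 and 1517, and 839.5 and 1295 cultured (log2 difference -0.80 ± 0.19, adjusted p = 0.00789). Replicate 2 of cultured CD8+ cells reached into the fresh range. In Ndufb8 (93581_at) the values were 973 and 883 in CD4+ cells, 720.0 and 1143 in CD8+ cells and 989 and 1208 in DN cells fresh, and 209.6 and 464, 679 and 878, and 352 and 712 cultured (log2 difference -0.97 ± 0.25, adjusted p = 0.0106). Replicate 2 of cultured CD8+ cells lay above replicate 1 of fresh CD8+ cells, the single overlap. Ndufb11 (96887_at), whose CD8+ arrays lay above the CD4+ arrays of the same state, read 624 and 604 in CD4+ cells, 989 and 1231 in CD8+ cells and 766 and 690.5 in DN cells fresh, and 282 and 385, 779 and 974, and 383 and 559 cultured (log2 difference -0.63 ± 0.17, adjusted p = 0.0132). The calls of these 3 and of the 4 before them held in every alternative that was run, including each array left out.

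Other complex I calls were lost in some of these alternatives. Ndufv2 (94062_at), a core subunit of the NADH-oxidising module that holds an iron-sulphur cluster, read 883 and 917 in CD4+ cells, 751 and 1216 in CD8+ cells and 943 and 934 in DN cells fresh. It read 61.0 and 591, 415 and 769.6, and 416 and 596 cultured, lowest on replicate 1 of cultured CD4+ cells (log2 difference -1.28 ± 0.43, adjusted p = 0.037). That call was lost without either fresh CD4+ array, without either fresh DN or cultured DN array, without fresh CD8+ replicate 2 and without cultured CD8+ replicate 1 (adjusted p = 0.0536 to 0.102), and also without a filter (0.0639) and with plain empirical Bayes (0.0550). Ndufv3 (97874_at), an accessory subunit of the same module, read 210.2 and 199 in CD4+ cells, 146 and 262 in CD8+ cells and 155 and 131 in DN cells fresh and 41.3 and 76.5, 153 and 124, and 117 and 129 cultured, both cultured CD4+ arrays being below the floor (log2 difference -0.79 ± 0.23, adjusted p = 0.019). It was at least 2.14-fold higher in fresh than in cultured CD4+ cells, taking the floor for the arrays below it. It no longer passed with fresh CD4+ replicate 1 (adjusted p = 0.0511) or cultured CD8+ replicate 2 (0.0519) left out.

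Ndufs3 (96899_at), a core subunit of the arm that reaches ubiquinone, stood at 495 and 583 in CD4+ cells, 246 and 575 in CD8+ cells and 499.8 and 797 in DN cells fresh and at 292 and 286, 284 and 386, and 282 and 354 cultured (log2 difference -0.69 ± 0.23, adjusted p = 0.0364). Replicate 1 of fresh CD8+ cells was below all other fresh arrays and below every cultured one. This call was lost without either fresh CD4+ array, without replicate 2 of fresh CD8+ or fresh DN cells, and without replicate 1 of any cultured subset (adjusted p = 0.0515 to 0.109), and also without a filter (0.0595) and with plain empirical Bayes (0.0525). Ndufb10 (101525_at), an accessory subunit of the membrane arm, read 422 and 384 in CD4+ cells, 296 and 506 in CD8+ cells and 476 and 383 in DN cells fresh and 70.3 and 229.9, 284 and 348, and 225 and 276 cultured (log2 difference -0.89 ± 0.27, adjusted p = 0.0242). It was lost without fresh CD8+ replicate 2, either fresh CD4+ array, or replicate 1 of fresh DN, cultured CD8+ or cultured DN cells (0.0513 to 0.0664).

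Ndufa1 (98117_at), an accessory subunit of the membrane arm, was the complex I member that was higher. Its fresh intensities were 15.8 and 43.2 in CD4+ cells, 78.0 and 25.3 in CD8+ cells and 47.9 and 35.1 in DN cells, all below the floor. Its cultured ones were 181 and 76.6, 69.7 and 79.6, and 99.9 and 120.4, of which 3 were above it (log2 difference 1.08 ± 0.32, adjusted p = 0.0206). Ndufa1 passed the filter only through cultured arrays, so that selection favoured this direction. It was at least 1.18-fold higher in cultured DN cells than in any fresh subset. With values below the floor raised to it the difference was 0.25 and the adjusted p 0.206, and the call was also lost on leaving out replicate 2 of fresh CD8+, fresh DN or cultured CD8+ cells, or replicate 1 of fresh CD4+ cells (0.0510 to 0.0585). Ndufa10, an accessory subunit related to nucleoside kinases, read 259.7 and 201 in CD4+ cells, 321 and 237 in CD8+ cells and 276 and 119 in DN cells fresh and 582 and 258, 355 and 343, and 332 and 327 cultured and was not called (log2 difference 0.64 ± 0.26, adjusted p = 0.0712), except with the experiment number as a block (0.0242). Ndufa7, another accessory subunit, read 1474 and 1175 in CD4+ cells, 1705 and 1418 in CD8+ cells and 1468 and 1087 in DN cells fresh and 801 and 837, 1182 and 1251, and 984 and 1322 cultured and was not called either (log2 difference -0.39 ± 0.15, adjusted p = 0.0616). The remaining 12 tested subunits were not called, with differences between -0.75 (Ndufa9) and 0.18 (Ndufb6).

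In complex II, only Sdha (94080_at), the flavoprotein that oxidises succinate, was called. It read 148 and 178 in CD4+ cells, 65.3 and 146 in CD8+ cells and 134 and 80.3 in DN cells fresh and -9.1 and 69.0, 63.2 and 61.2, and 29.3 and 52.9 cultured (log2 difference -1.27 ± 0.37, adjusted p = 0.0193), so every cultured array was below the floor. Sdha passed the filter only through fresh arrays, so that selection favoured this direction. It was at least 1.71-fold higher in fresh CD4+ cells than in each cultured group. It did not pass on leaving out replicate 2 of fresh CD4+ or fresh CD8+ cells or replicate 1 of fresh or cultured DN cells (adjusted p = 0.0524 to 0.0571). Sdhb, the iron-sulphur subunit, read 664 and 543 in CD4+ cells, 549.6 and 801 in CD8+ cells and 664 and 575 in DN cells fresh and 287 and 449, 817 and 868, and 513 and 672 cultured (log2 difference -0.16 ± 0.18, adjusted p = 0.507). Cultured CD8+ cells lay above, and cultured CD4+ cells below, the fresh CD4+ arrays. Sdhd, a membrane anchor, read 896 and 708 in CD4+ cells, 550.1 and 1063 in CD8+ cells and 891 and 422 in DN cells fresh and 310.4 and 600.1, 600.0 and 919, and 466 and 789 cultured, and the fresh and cultured arrays overlapped (log2 difference -0.31 ± 0.28, adjusted p = 0.387). Sdhc, the other anchor, gave a difference of -0.27 (adjusted p = 0.283).

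In complex III, Uqcr11 (99618_at), a small accessory subunit, had the most negative difference of all members. It read 226 and 168 in CD4+ cells, 223 and 378 in CD8+ cells and 269.5 and 293 in DN cells fresh and -103 and 72.0, 178 and 193, and 28.7 and 86.8 cultured (log2 difference -2.06 ± 0.56, adjusted p = 0.014). The cultured CD8+ arrays stayed above the floor and the other 4 cultured arrays were below it, 1 of them below 0, which enlarges the difference on this scale. Against the floor it was at least 2.04-fold higher in fresh than in cultured CD4+ cells and at least 2.92-fold higher in fresh than in cultured DN cells. The call held in every alternative that was run, with adjusted p of 3.63e-05 to 0.0430. Cyc1 (95072_at), the cytochrome c1 that docks cytochrome c, read 1359 and 1209.8 in CD4+ cells, 2143 and 1407 in CD8+ cells and 1427 and 1949 in DN cells fresh and 986 and 886, 1219.5 and 1298, and 1144 and 1174 cultured (log2 difference -0.48 ± 0.16, adjusted p = 0.0319). Its second tested probe set gave -0.06 (adjusted p = 0.927), and with the mean of both the difference was -0.27 (0.422). The call of Cyc1 was also lost with plain empirical Bayes (0.0606), without the 3 arrays of highest Gapdh ratio (0.0636) and without any 1 of 8 arrays, namely both of fresh CD4+, cultured CD8+ and cultured DN cells, fresh CD8+ replicate 1 and fresh DN replicate 2 (0.0554 to 0.0992). Uqcrq, another small subunit, read 1233 and 986 in CD4+ cells, 1473 and 1582 in CD8+ cells and 1210.4 and 1678 in DN cells fresh and 1344 and 826, 1382 and 1563, and 826 and 1218 cultured (log2 difference -0.21 ± 0.18, adjusted p = 0.374). The core proteins Uqcrc1 and Uqcrc2 differed by 0.04 and 0.10 and the hinge protein Uqcrh by -0.04, none of them called.

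Cox8c of complex IV was the member for which all 6 cultured arrays read above all 6 fresh ones. Cox8c (100965_at), an isoform of subunit VIII known from testis, read 134 and 126 in CD4+ cells, 144 and 87.3 in CD8+ cells and 184 and 95.9 in DN cells fresh. Cultured it read 520.5 and 296, 239.7 and 307, and 361 and 349 (log2 difference 1.39 ± 0.24, adjusted p = 0.00112). It was the 1 member with this pattern (1.6%), which 7.68% of all tested probe sets showed, and its call held in every alternative. A second probe set of Cox8c was above the floor on 0 arrays (mean -15.2) and was not tested. The alternative with the mean over probe sets left it out, so that alternative could not bear on this call. Cox7a2l (160383_at), a relative of subunit VIIa known for joining complexes III and IV into supercomplexes, moved the other way. It stood at 2172 and 2335 in CD4+ cells, 1251 and 2248 in CD8+ cells and 1812 and 1424 in DN cells fresh and at 346 and 806, 1050.5 and 1610.1, and 523 and 1089 cultured (log2 difference -1.18 ± 0.27, adjusted p = 0.00579), a call that also held throughout. Of the cultured arrays only replicate 2 of CD8+ cells reached the fresh range, and the lowest of all was replicate 1 of cultured CD4+ cells.

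For subunits VIa and VIIa of complex IV, which have tissue isoforms, the muscle isoform gave little signal. Cox6a1 was above the floor on 12 arrays and Cox6a2, the heart and muscle form, on 0 (-36.1 to 45.9). Cox6a1 read 2625 and 2302 in CD4+ cells, 4052 and 2460.2 in CD8+ cells and 2778 and 3576 in DN cells fresh and 3373 and 2553, 3141 and 3355, and 2852 and 3460.0 cultured (log2 difference 0.10 ± 0.17, adjusted p = 0.661). Cox7a2, the widely expressed form of subunit VIIa, was above the floor on 12 arrays and read 344 and 286 in CD4+ cells, 847 and 400.2 in CD8+ cells and 466 and 466 in DN cells fresh and 310.0 and 512, 414 and 381, and 586 and 346 cultured. Cox7a1, the muscle form, was above it on 2, cultured CD4+ replicate 2 (92.6) and cultured CD8+ replicate 2 (142), and read -25.7 to 39.1 elsewhere. Cox4i1, which forms the regulatory subunit IV, read 546 and 305 in CD4+ cells, 693 and 458 in CD8+ cells and 484 and 444 in DN cells fresh and 103 and 377, 342 and 379.8, and 284 and 326 cultured, lowest on cultured CD4+ replicate 1, and was not called (log2 difference -0.75 ± 0.29, adjusted p = 0.0617).

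For subunits VIb and VIII the widely expressed form was above the floor on few arrays or none. Cox6b1, the widely expressed form of subunit VIb, was above the floor on 2 arrays, cultured CD8+ replicate 1 (115) and cultured DN replicate 1 (108), and read 14.1 to 52.2 on the other 10. Cox6b2, a form known from testis, was above it on 9 arrays, with 129 and 41.2 in CD4+ cells, 136 and 99.4 in CD8+ cells and 129 and 70.3 in DN cells fresh and 172 and 77.4, 124 and 98.4, and 132 and 109.7 cultured. Its probe set can bind several genes of a family, and that of Cox6b1 was made with relaxed selection rules (suffix r). Of subunit VIII, Cox8a was above the floor on 0 arrays (-16.1 to 41.1), Cox8b on 2 (31.9 to 103 over all arrays) and Cox8c on 11. Levels of different probe sets cannot be set against each other, so these counts say only where each probe set gave a signal. Cox6c, which has no such pair, read 1835 and 2046 in CD4+ cells, 2896 and 2442 in CD8+ cells and 1862 and 2319.9 in DN cells fresh and 1535 and 1882, 1952 and 2307, and 1759 and 2140.2 cultured (log2 difference -0.20 ± 0.14, adjusted p = 0.269).

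In complex V, the gamma subunit gene Atp5c1 (92799_g_at), whose product is the rotating central stalk, was lower. It read 1386 and 1286 in CD4+ cells, 1963 and 1743 in CD8+ cells and 1477 and 1678 in DN cells fresh and 658 and 894, 1282 and 1600.2, and 852 and 1039 cultured (log2 difference -0.64 ± 0.15, adjusted p = 0.00645). Replicate 2 of cultured CD8+ cells lay within the fresh range and the other 5 cultured arrays lay below it. Its second tested probe set was lower as well (-0.41, adjusted p = 0.0379), and the call of the first held in every alternative. The alpha subunit gene Atp5a1, part of the catalytic head, read 2017 and 1957 in CD4+ cells, 1967 and 1889 in CD8+ cells and 1871 and 2186 in DN cells fresh and 1767 and 1794, 2181 and 2255, and 1942 and 2379 cultured, a difference within the spread (log2 difference 0.04 ± 0.13, adjusted p = 0.8). Atp5l, subunit g of the membrane part, read 2459.5 and 2067 in CD4+ cells, 2466 and 2579 in CD8+ cells and 1699.6 and 1360.5 in DN cells fresh and 1545 and 2096, 1939 and 1450.0, and 2002 and 1629.9 cultured (log2 difference -0.22 ± 0.15, adjusted p = 0.267).

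Atp5md (95718_f_at), a small membrane subunit, was higher in cultured than in fresh CD4+ cells and was not called in the mean over subsets (log2 difference 0.55 ± 0.22, adjusted p = 0.0718). Its intensities were 762 and 917 in CD4+ cells, 2729 and 1274 in CD8+ cells and 929 and 1372 in DN cells fresh and 2226 and 2093, 1140.3 and 1758, and 1468 and 2233 cultured, so that both cultured CD4+ arrays lay far above both fresh ones and the CD8+ arrays of either state overlapped. Atp5o, the subunit that joins the stalk to the head, had a difference of -1.62 that was not called (adjusted p = 0.103): it read -101 on replicate 1 of cultured CD4+ cells but from 125 to 798 on the other 11 arrays. Atp5g2, which forms the rotor ring, was above the floor on all 12 arrays (226 to 520.1) with a difference of -0.35 (0.118), while Atp5g1, coding for the same mature protein, was not tested.

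Set against each gene's own mean, the median member was highest on the fresh CD8+ arrays and lowest on replicate 1 of cultured CD4+ cells. The median log2 deviation over the 63 members was 0.03 and -0.04 in fresh CD4+ cells, 0.35 and 0.29 in fresh CD8+ cells and 0.16 and 0.16 in fresh DN cells. It was -0.53 and -0.29 in cultured CD4+ cells, -0.02 and 0.17 in cultured CD8+ cells and -0.29 and 0.04 in cultured DN cells, whereas over all tested probe sets it was between -0.04 and 0.08 on every array. Complex I had medians of 0.18 to 0.35 on the 6 fresh arrays and -0.64 to 0.24 on the cultured ones, which overlapped through cultured CD8+ replicate 2. Complex IV ran from -0.35 to 0.33 fresh and -0.13 to 0.30 cultured, with no separation. Its 13 members include those that passed the filter only through cultured arrays. Replicates lay furthest apart in cultured CD4+ cells, where 18 of 63 members (28.6%, next to 36.0% of all tested probe sets) differed over 2-fold between the pair, 14 of them lower on replicate 1. In fresh CD8+ cells 10 did (15.9%, next to 24.7%), in cultured DN cells 5, in fresh DN cells 3, in cultured CD8+ cells 2 and in fresh CD4+ cells 1, and in each group the share over all tested probe sets was the higher one.

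**Figure D4:**
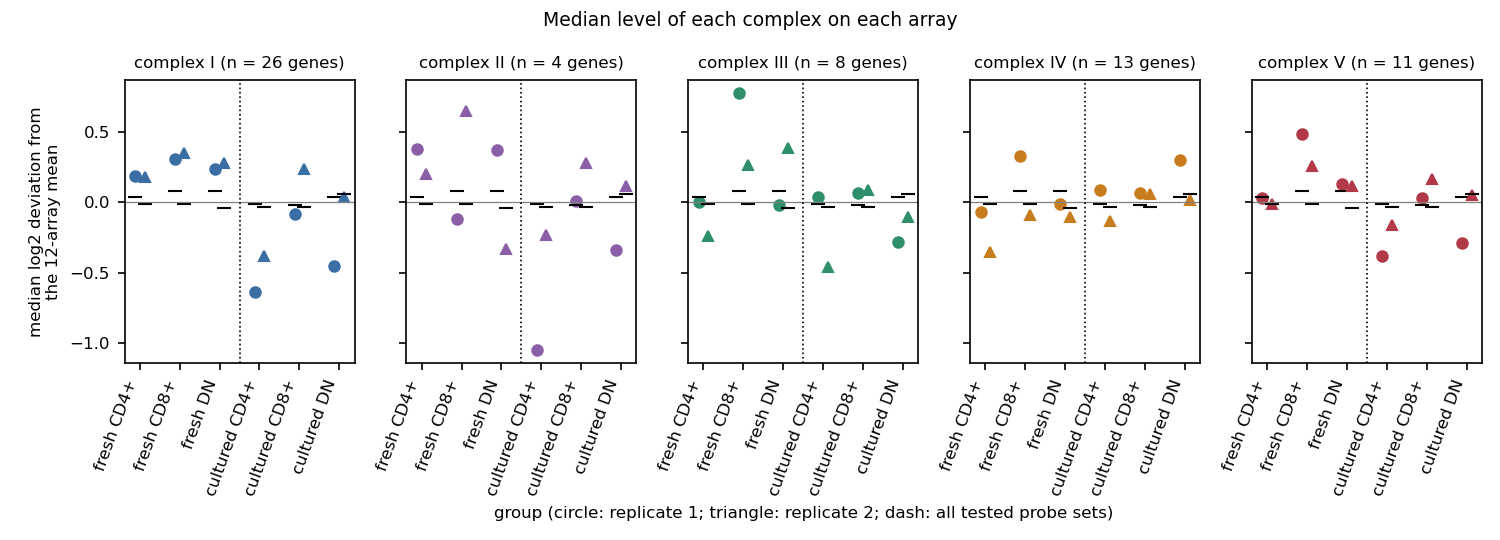
For each complex, points give the median log2 deviation of its tested members from their 12-array means on each array, with circles for replicate 1, triangles for replicate 2 and dashes for all tested probe sets. Complex I lies above 0 on all 6 fresh arrays, and the 4 subunits of complex II fall to -1.05 on replicate 1 of cultured CD4+ cells.

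Within single subsets fewer members were called. In CD4+ cells 10 were, 8 lower (12.7%, next to 10.9% of all probe sets) and 2 higher (3.2%, next to 7.53%), with a median of -0.44. The 8 were Uqcr11 (-3.34 ± 0.96), Sdha (-2.13 ± 0.64), Cox7a2l (-2.09 ± 0.47), Ndufv3 (-1.67 ± 0.39), Ndufb10 (-1.59 ± 0.47), Ndufb8 (-1.56 ± 0.43), Ndufa8 (-1.55 ± 0.35) and Ndufa3 (-0.90 ± 0.27), with adjusted p of 0.0122 to 0.0396. The 2 higher were Cox8c (1.56 ± 0.41, adjusted p = 0.0249) and Atp5md (1.37 ± 0.39, 0.0328). The count moved with single arrays: 0 were left without either fresh CD4+ array, 1 without replicate 1 of cultured CD4+ cells and 22 without replicate 2, 6 without either array of fresh DN or of cultured CD8+ cells, and 7 to 15 without 1 of the others. Without the 3 arrays of highest Gapdh ratio 9 were called, 3 higher and 6 lower. With the experiment number as a block 19 were called, 3 higher and 16 lower, without a filter 4, with array weights 6 and with only the groups compared 0. The count over all 6159 probe sets moved as well, from 1133 to 1786 with the block and to 254 with only the groups compared. It also moved with single arrays left out, so these moves were not particular to the members.

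In CD8+ cells Ndufa3 was the 1 member called (log2 difference -1.28 ± 0.27, adjusted p = 0.0156), next to 8.13% of all probe sets called, 4.12% lower and 4.01% higher, and the median was -0.34. That call was lost without fresh CD8+ replicate 1 or either cultured CD8+ array (adjusted p = 0.0650 to 0.0979) and with only the groups compared (0.0502); without fresh CD8+ replicate 2 there were 2 calls, and without the 3 arrays of highest Gapdh ratio 4, of which 3 lower. In DN cells the 1 member was Ndufa6 (log2 difference -1.27 ± 0.34, adjusted p = 0.0407), next to 9.90% of all probe sets called, 5.70% lower and 4.21% higher, with a median of -0.29, and it was lost without either array of any of 4 groups, fresh CD4+, fresh DN, cultured CD8+ and cultured DN (0.0589 to 0.292). Without either cultured CD4+ array 3 members were called in DN cells, without either fresh CD8+ array 2, and without the 3 arrays of highest Gapdh ratio 2, which no longer held Ndufa6 (0.0628). The call of Ndufa6 was also lost without a filter (0.0720) and with plain empirical Bayes (0.0558), and the block gave 3 members, 1 higher and 2 lower. In CD4+ cells both fresh arrays read above both cultured ones in 33 members (52.4%, next to 34.0% of all tested probe sets), in CD8+ cells in 25 (39.7%, next to 29.4%) and in DN cells in 26 (41.3%, next to 31.7%). The reverse held in 7 (11.1%, next to 28.8%), 7 (11.1%, next to 22.7%) and 6 (9.5%, next to 31.7%). Ndufb3, which differed by -0.80, -0.86 and -0.94 in CD4+, CD8+ and DN cells, was called in none of the 3 subsets alone.

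Whether the culture effect differed between subsets was tested directly. The difference between the effects in CD8+ and CD4+ cells was called for 0 members and 0 of all probe sets by limma, with 5 members and 525 probe sets at an unadjusted p under 0.05. Those 5 were Atp5md, Atp5mpl, Uqcrh, Cox7a2l and Sdhb. For CD8+ against DN cells 0 were called, with 2 members and 250 probe sets at that unadjusted level, and for DN against CD4+ cells 0, with 2 and 127. With replicate 2 of cultured CD4+ cells left out, the first of these tests called 4 members and the last 3. Across all 6 groups the F test called 7 members (11.1%, next to 21.6% of all probe sets): Atp5c1, Cox7a2l, Cox8c, Ndufa3, Ndufa6, Ndufa8 and Ndufb11, all of which were also called in the mean culture effect. This count was 18 without cultured CD4+ replicate 2 and 10 without fresh CD8+ replicate 2. It was 1 and 2 without a fresh CD4+ array, 3 without either fresh DN array, 4 without either cultured CD8+ array, 2 without cultured DN replicate 1 and 6 without any of the other 3. With the experiment number as a block it was 13. The count over all probe sets, 1332 in the main fit, also moved when single arrays were left out.

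Between fresh subsets no member was called. For CD8+ minus CD4+ cells, 0 of 63 passed by limma, next to 1.98% of all probe sets called, 1.02% higher and 0.958% lower. An unadjusted p under 0.05 was reached by 6 members, a looser level to which these shares do not apply. The median difference was 0.27 over the members and 0.00 over all, and 47 members lay above 0. In 26 members (41.3%) both fresh CD8+ arrays read above both fresh CD4+ arrays, which 18.5% of all tested probe sets did, and in 3 (4.8%, next to 20.6%) the CD4+ arrays read above, namely Sdha, Cox5a and Cox7a1. The 26 were 8 of complex I, 5 of complex III, 5 of complex IV, 7 of complex V and Cycs. Cox5a and Cox7a1, and also Cox6b1 among the 26, were below the floor on every fresh CD4+ and CD8+ array. Without the 3 arrays of highest Gapdh ratio, 1 of which is fresh CD8+ replicate 1, the median was 0.29 and 0 were called. Leaving out fresh CD8+ replicate 2 called 3, and leaving out either cultured CD4+ array called 1, as did the experiment number as a block (Uqcrb, adjusted p = 0.0494).

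The largest of these differences were in complexes III to V. Uqcrb, a small ubiquinone-binding subunit of complex III, read 187 and 156 in CD4+ cells, 678 and 380.2 in CD8+ cells and 225 and 307 in DN cells fresh and 285 and 136, 263 and 250.3, and 184 and 161 cultured. The fresh difference did not pass (log2 difference 1.55 ± 0.41, adjusted p = 0.0904). Cox7b, an accessory subunit of complex IV, read 450.0 and 554 in CD4+ cells, 1571 and 901 in CD8+ cells and 567 and 556 in DN cells fresh and 254 and 520.2, 729 and 615, and 759.8 and 388 cultured, with fresh CD8+ replicate 1 far above the rest (log2 difference 1.25 ± 0.42, adjusted p = 0.222). Atp5mpl, a small membrane subunit of complex V, gave 1.19 (adjusted p = 0.0988). The most negative among members above the floor on every array compared were Ndufs3 (log2 difference -0.51 ± 0.40, adjusted p = 0.831) and Cox7a2l (log2 difference -0.43 ± 0.47, adjusted p = 0.919), whose values are given above; without fresh CD8+ replicate 1 the difference of Ndufs3 was 0.10, the other way.

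For fresh CD8+ minus DN cells 0 members were called next to 1.43% of all probe sets, with 0.617% called higher and 0.812% lower. At an unadjusted p under 0.05, a looser level to which these shares do not apply, there were 5 members. The median was 0.16. Both CD8+ arrays read above both DN arrays in 9 members (14.3%, next to 16.9%), and the reverse held in 1, Ndufb6 (1.6%, next to 18.5%). The lowest p was that of Ndufa3 (log2 difference 0.86 ± 0.27, adjusted p = 0.211). For fresh DN minus CD4+ cells 0 members and 0 of all probe sets were called, with 0 members and 81 probe sets at an unadjusted p under 0.05, and the median was 0.17. The 3 subset comparisons share arrays pairwise.

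Between cultured CD8+ and CD4+ cells 1 member was called, the complex I subunit Ndufb11, higher in CD8+ cells (log2 difference 1.40 ± 0.29, adjusted p = 0.0324), next to 1.41% of all probe sets called higher, 0.877% called lower and 2.29% in either direction. Its intensities, given above, were 779 and 974 in cultured CD8+ cells against 282 and 385 in cultured CD4+ cells, and in fresh cells the difference was 0.85 ± 0.29 (adjusted p = 0.233). The call was lost without fresh or DN arrays that only add to the estimate of spread (each fresh CD4+ and fresh DN array, 0.0619 to 0.0709) and without cultured CD4+ replicate 1 (0.115) or either cultured CD8+ array (0.132 and 0.232), and without cultured CD4+ replicate 2 the count was 13. It was also lost without a filter (0.0568), with plain empirical Bayes (0.0730), with array weights (0.125) and with only the groups compared (0.276). The count over all probe sets moved too, from 141 to 20 with only the groups compared, and also with single arrays left out. At an unadjusted p under 0.05 there were 17 members, a looser level to which the shares called above do not apply. The median difference was 0.47, against -0.06 over all, and 50 members lay above 0.

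Both cultured CD8+ arrays read above both cultured CD4+ arrays in 31 members (49.2%, next to 19.8% of all), 15 of them in complex I, and the reverse held in 4 (6.3%, next to 20.6%): Atp5md, Cox8b, Uqcrc2 and Uqcrh. Cox8b read 103.4 and 80.3 in cultured CD4+ cells and 80.1 and 38.5 in cultured CD8+ cells, of which only the first was above the floor. Without the 3 arrays of highest Gapdh ratio the median was 0.38 and 1 member was called. Sdhb came next after Ndufb11 (log2 difference 1.22 ± 0.31, adjusted p = 0.077), followed by Atp5c1 (log2 difference 0.90 ± 0.26, adjusted p = 0.116). Uqcr11 differed by 3.27 ± 0.96 (0.127), with a bound of at least 1.94-fold. For cultured CD8+ minus DN cells 0 members were called, next to 1.30% of all probe sets (0.649% in each direction), and the median was 0.21. Ndufb11 and Atp5c1 had an unadjusted p under 0.05, a looser level to which these shares do not apply. Both CD8+ arrays read above both DN arrays in 18 members (28.6%, next to 18.6%) and below in 6 (9.5%, next to 27.4%). For cultured DN minus CD4+ cells 0 members and 0 of all were called, with 3 members and 235 probe sets at an unadjusted p under 0.05, and the median was 0.29. Leaving out cultured CD4+ replicate 2 called 5 in the last of these.

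The fresh and cultured differences between CD8+ and CD4+ cells come from separate arrays. Both lay above 0 in 37 of 63 members (58.7%, next to 24.3% of all tested probe sets) and below 0 in 3. Across the 63 genes, which are not independent replicates, their correlation was -0.16, against 0.27 over all tested probe sets. The points of each axis share their 4 arrays. Uqcrb stood at 1.55 fresh and 0.37 cultured, and Uqcr11 at 0.56 and 3.27.

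**Figure D5:**
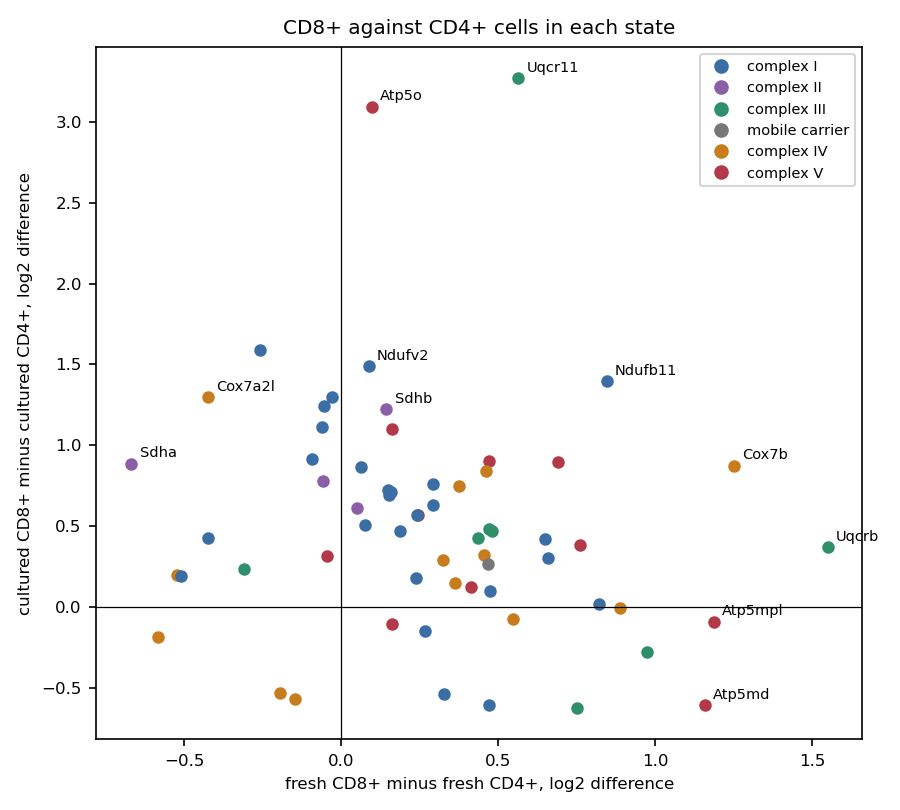
Each point is a tested member, with its log2 difference between fresh CD8+ and CD4+ cells on the horizontal axis and that between cultured CD8+ and CD4+ cells on the vertical axis, coloured by complex. Of the 63 points 37 lie above 0 on both axes and 3 below 0 on both, and Atp5o and Uqcr11, which read below 0 on replicate 1 of cultured CD4+ cells, lie far above the rest.

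Other genes of the mitochondrion were read from lists chosen with earlier results of these data known; their counts stand next to 17.0% of all tested probe sets higher after culture and 22.3% lower, with a median of -0.02. Of 18 tested genes of assembly and import, 4 were higher after culture and 3 lower, shares near those of all probe sets, with a median of -0.02. Surf1, an assembly factor of complex IV, had the most negative difference (-2.44 ± 0.32, adjusted p = 0.000215): it read 156 to 289 on the 6 fresh arrays and -12.0 to 52.9 on the cultured ones, which were all below the floor. The matrix chaperones Hspa9 (0.90 ± 0.18, 0.00284) and Hspd1 (0.68 ± 0.16, 0.00587) were higher, as was the copper chaperone Cox17 (0.56 ± 0.16, 0.0161). Of 17 genes of the tricarboxylic acid cycle and pyruvate dehydrogenase 0 were higher and 8 lower, with a median of -0.36. Among them were the isocitrate dehydrogenase Idh2 (-2.12 ± 0.27, 0.000200), fumarase Fh1 (-1.44 ± 0.21, 0.000450) and the succinyl-CoA ligase subunits Suclg1 (-0.78 ± 0.18, 0.00708) and Suclg2 (-0.65 ± 0.17, 0.0118).

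Of 12 carriers and channels 2 were higher and 5 lower (median -0.32), next to 17.0% and 22.3% of all tested probe sets. Gpd2, the mitochondrial glycerol-3-phosphate dehydrogenase that feeds electrons to ubiquinone, rose from 301 to 415 on the fresh arrays to 1108 to 1705 on the cultured ones (2.00 ± 0.17, adjusted p = 1.29e-05), and the acylcarnitine carrier Slc25a20 also rose (1.55 ± 0.18, 8.39e-05). The 2-oxoglutarate carrier Slc25a11 (-1.05 ± 0.21, 0.00292) and the electron transfer flavoprotein subunit Etfb (-1.35 ± 0.37, 0.0145) were lower. Of 8 tested genes of mitochondrial transcription and replication 0 were called in either direction (median -0.12, 1 at an unadjusted p under 0.05). Of 7 genes of oxidant defence Gpx1 was higher (1.08 ± 0.23, 0.00429) and Cat lower (-1.27 ± 0.23, 0.00152). Between cultured CD8+ and CD4+ cells the call in these lists was Slc25a20, higher in CD8+ cells (1.98 ± 0.31, 0.00852).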

How the data were processed

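The deposited values are average difference intensities, perfect match minus mismatch signal, which the authors scaled globally, per the labels; software and genome build: not given in the sources used here. A 2% trimmed mean was 150.0 on all 12 arrays. The 66 control probe sets were left out, and gene symbols were taken from the platform's annotation. An intensity x was turned into log2((x + sqrt(x² + c²)) / 2), with c = 45.7, the median of the 12 arrays' noise (root mean square of their values below 0), and the floor was 2 times c. A probe set had to exceed the floor on at least 2 arrays and was then tested with limma 3.58.1 in R 4.3.3 (1 mean per group over 12 arrays, empirical Bayes with trend and robust estimation, residual df 6). P-values were adjusted by Benjamini-Hochberg over the 6159 tested probe sets and called under 0.05. Over all tested probe sets same-numbered arrays deviated together (correlation 0.106 to 0.444 in all 15 pairs of groups). Over the 63 members the correlation was not of 1 sign and ran from -0.218 to 0.663. The labels do not say what an experiment number shares, so the fit has no block, and blocked counts stand beside the results they move. The script was tested on simulated data. A group below the floor on both arrays has only a bound: folds of at least N were computed on this scale against the floor.

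The members and lists were chosen with earlier results of these data known. Genes named were all called members, the 2 of highest mean in each complex, the 2 of largest and the 2 of most negative difference in the mean culture effect and in fresh CD8+ minus CD4+ cells (each among members above the floor on every array compared), the tissue isoforms, and at most 4 called genes of each other list. Ndufa9, Ndufb6, Sdhc, Cox5a, Atp5o, Atp5mpl, Uqcrc1, Uqcrc2 and Uqcrh were named after their values were seen. Alternatives were other offsets, a hard floor, quantile normalization, other filters, plain empirical Bayes, array weights, a replicate block, only the groups compared, each array left out, the arrays of highest Gapdh ratio left out, and the mean over a gene's tested probe sets.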

Additional observations from a re-analysis of the deposited data

How the results depend on the processing

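The 37 results for named genes were each refitted under the alternatives, which gave 865 refitted values in all. Of these values 699 kept the direction and the side of the threshold, 154 kept the direction and lost the call, 10 gained one and 2 turned. Those 2 were the fresh CD8+ minus CD4+ difference of Ndufs3, which was 0.10 without fresh CD8+ replicate 1 and without the 3 arrays of highest Gapdh ratio, and ranged from -1.12 to 0.10 with 1 array left out. Counts of called members moved as follows. The F test called 13 with array weights, 3 with plain empirical Bayes and 4 without a filter, and 1 to 18 with 1 array left out. Culture in CD4+ cells gave 6 with array weights, 4 without a filter and 0 with only the groups compared (leaving out 1 array, 0 to 22). Culture in CD8+ cells gave 0 with only the groups compared and 4 without the 3 arrays (0 to 2). Culture in DN cells gave 6 with array weights, 0 with plain empirical Bayes or without a filter, 2 with the hard floor, an offset of 2 times c, or without the 3 arrays, 4 with quantile normalization and 8 with only the groups compared (0 to 3). The mean culture effect ranged from 12 to 30. Cultured CD8+ minus CD4+ gave 0 with array weights, plain empirical Bayes, no filter or only the groups compared (0 to 13). Fresh CD8+ minus CD4+ gave 1 with array weights (0 to 3), and fresh CD8+ minus DN gave 1 without the 3 arrays. Cultured DN minus CD4+ ranged from 0 to 5, and the subset differences in culture effect from 0 to 4 (CD8+ against CD4+) and 0 to 3 (DN against CD4+). With the experiment number as a replicate block the F test called 13, culture in CD4+ cells 19, in DN cells 3, the mean culture effect 24 and fresh CD8+ minus CD4+ 1; of the named results it lost no call and gained those of Ndufa10 (mean culture effect) and Uqcrb (fresh CD8+ minus CD4+). Counts over all probe sets moved as well. With only the groups compared, culture in CD4+ cells went from 1133 to 254, in DN cells from 610 to 1178, cultured CD8+ minus CD4+ from 141 to 20, cultured CD8+ minus DN from 80 to 30, fresh CD8+ minus CD4+ from 122 to 75 and fresh DN minus CD4+ from 0 to 15. The block gave 1786 for CD4+ cells, the hard floor 206 for fresh CD8+ minus CD4+, and leaving out the 3 arrays 991 for CD8+ cells, 317 for cultured CD8+ minus CD4+, 210 for cultured CD8+ minus DN and 155 for fresh CD8+ minus DN. Leaving out 1 array gave 306 to 2115 for culture in CD4+ cells, 130 to 770 in CD8+ cells, 90 to 966 in DN cells and 1699 to 3131 for the mean. It gave 28 to 551 for cultured CD8+ minus CD4+, 5 to 162 for cultured CD8+ minus DN, 0 to 199 for cultured DN minus CD4+, 26 to 202 for fresh CD8+ minus CD4+, 8 to 123 for fresh CD8+ minus DN, 750 to 2080 for the F test, and up to 162 (CD8+ against CD4+) and 72 (DN against CD4+) for differences in culture effect. The cause of these moves was not tested.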
